A study of Mus musculus with 21 samples.

Results

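The genes described here are those of axonemal dynein heavy chains and of the ciliary transport machinery, the Ift and Bbs genes. They were chosen by symbol, as the rows whose gene name starts with Dnah, Ift or Bbs followed by a digit. Of the deposited rows 20 matched, 12 Ift and 8 Bbs genes, and no row matched Dnah, because the table lists the heavy chains under their older symbol Dnahc. The 15 rows with a Dnahc symbol, whose current RefSeq symbols all start with Dnah, were therefore taken as the heavy chains. This gave 35 members among 37620 genes, and the older symbols are used throughout. A further 2 genes carry an Ift symbol only in the current nomenclature, 1700019E19Rik (now Ift43) at 36.8 ± 3.97 FPKM (SD, n = 4) and Rabl5 (now Ift22) at 13.6 ± 1.02 FPKM, and were not counted as members.

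Cilia and sperm tails are built around an axoneme of microtubules. Dynein heavy chains are the motors of its outer and inner arms, which slide neighbouring microtubule doublets and make the axoneme beat. Intraflagellar transport (IFT) trains carry building material along the axoneme of nearly every cilium, motile or not, and the BBSome, named after Bardet-Biedl syndrome, rides with them and moves membrane proteins. In the testis, the sperm tail is assembled in spermatids, after meiosis, while many somatic cells carry a single immotile primary cilium that has no dynein arms.

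The values came from RNA-seq of germ cells enriched by collagenase and trypsin digestion from testes of C57BL/6J (B6) mice at 12 days post-partum and labelled as spermatocytes. The 12 libraries fall into 4 samples of 3 libraries, which the labels number 186wt, 343wt, 444wt and 456wt. No treatment or allele differed between them in the labels, which do not say what a sample number marks. Per the methods of the study RNA came from 4 replicates of the enriched cells, as many as there are sample numbers, and whether the 3 libraries of a number are separate preparations is not given in the sources used here. The p-values set differences between samples against the spread of the 3 libraries of a sample, which may be technical only. Values are FPKM, the fragments of a gene scaled to the length of its transcripts and to the mapped fragments of the library, and each mean ± SD below is over the 4 samples, each the mean of its 3 libraries.

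The depth estimated from the FPKM steps was 13.05 to 18.2 M (mega) fragments per library. The early meiotic markers Stra8, Sycp3 and Spo11 averaged 103, 73.1 and 5.47 FPKM, and the 7 markers of early meiotic prophase summed to between 245 and 409 FPKM per sample. Spermatid markers were low, with 7 markers summing to between 3.03 and 5.47 FPKM and a median of 0.163 FPKM. They ranged from the protamine gene Prm2, at 0 in every library, to Spaca1 at 2.09 FPKM. Of the 7, 5 had a mean of at least 0.1 FPKM and 1 a mean of at least 1 FPKM. The 7 Sertoli cell markers found summed to between 1685 and 3068 FPKM, led by Clu at 1844 FPKM, so the RNA labelled as spermatocyte also held transcripts of other cell types. In bulk RNA of this kind, fewer cells of a type and less RNA per cell cannot be told apart.

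The heavy chain genes were low, and most transport genes were above the median of expressed genes. The median of the 15 heavy chains was 0.488 FPKM (range of gene means 0.0283 to 4.38 FPKM), and that of the 20 transport genes was 12.5 FPKM (range 2.97 to 75.99 FPKM). Of the heavy chains, 13 had a mean of at least 0.1 FPKM and 5 a mean of at least 1 FPKM, whereas all 20 transport genes were above 1 FPKM. Over all genes, 55.3% had a mean of at least 0.1 FPKM and 38.1% a mean of at least 1 FPKM. The median of the genes with at least 0.1 FPKM was 5.005 FPKM.

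Within each sample the transport median was subtracted from the heavy chain median on the log2(FPKM + 0.1) scale, which understates differences of genes near 0. The difference was -4.48 in 186wt, -4.51 in 343wt, -4.41 in 444wt and -4.35 in 456wt. The 4 values lay close together, with a mean of -4.43 ± 0.07 (SD, n = 4). As a ratio of FPKM medians, the transport genes stood 26.2 ± 2.08 times above the heavy chains. The difference was larger against the Ift genes alone, at -4.92, than against the Bbs genes alone, at -3.36. No test was made over genes, which are not replicates.

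**Figure D1:**
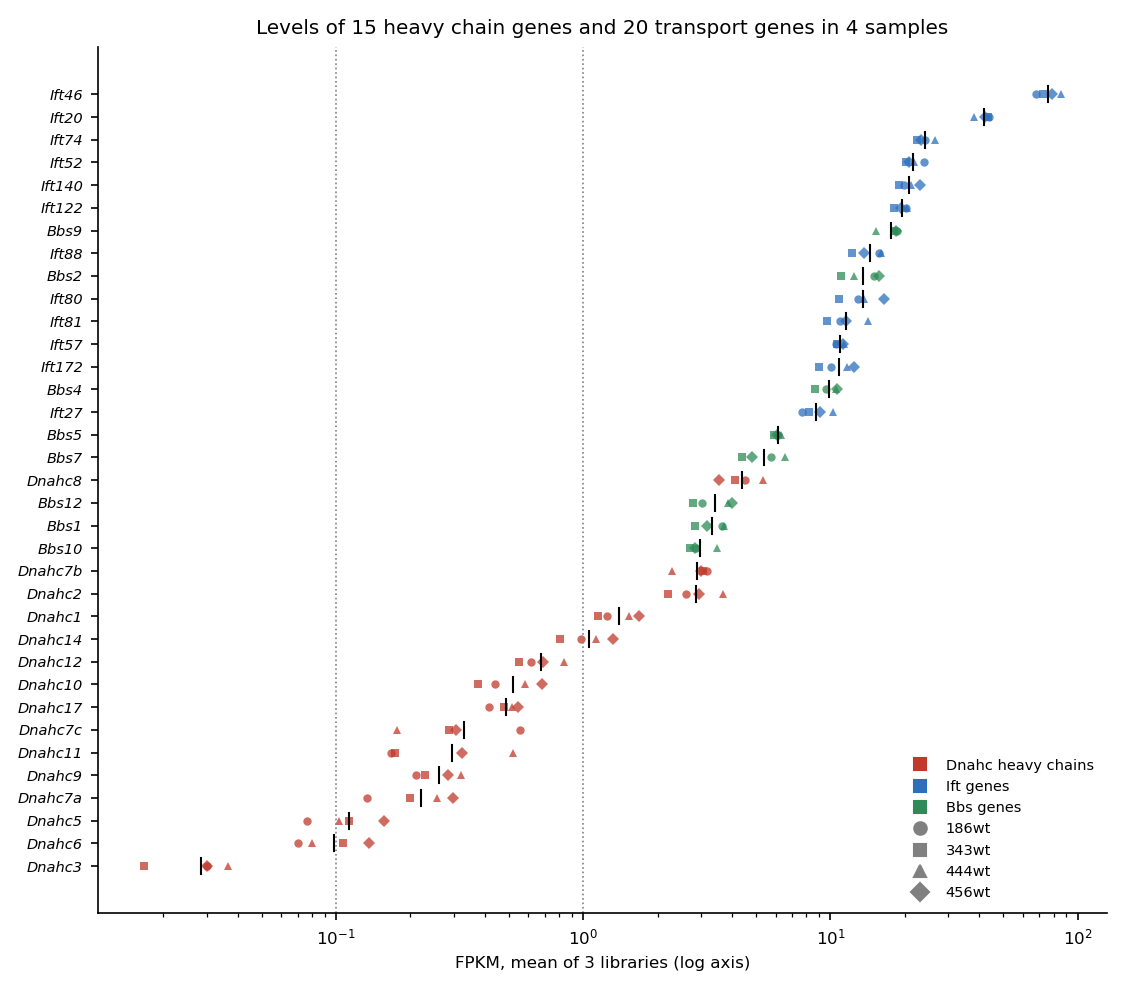
FPKM of the 15 heavy chain genes (red), 12 Ift genes (blue) and 8 Bbs genes (green) on a log axis, ordered by mean. Each symbol is the mean of the 3 libraries of 1 sample, black bars mark the mean of the 4 samples, and dotted lines stand at 0.1 and 1 FPKM. The heavy chains fill the lower end, and only Dnahc8, Dnahc7b and Dnahc2 come near the lowest Bbs genes.

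By the means over the 4 samples, Dnahc8 was the only heavy chain above the lowest transport gene, Bbs10, and 14 heavy chains were below it. Of the transport genes, 17 were above Dnahc8 by these means, and 3 (Bbs12, Bbs1 and Bbs10) were below. Within single samples the ranges overlapped further. Dnahc7b was above Bbs10 in 186wt (3.16 against 2.86 FPKM), 343wt (3.04 against 2.71) and 456wt (3.01 against 2.83). Dnahc2 was above Bbs10 in 444wt (3.69 against 3.47 FPKM) and 456wt (2.95 against 2.83). The top quartile of genes with at least 0.1 FPKM began at 21.1 FPKM and held 4 transport genes, Ift46, Ift20, Ift74 and Ift52, and no heavy chain.

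Genes with long transcripts were mostly at higher levels than the heavy chains. Of 292 protein-coding genes with an annotated transcript of at least 10000 bases, 79.1% were above 1 FPKM, with a median of 8.59 FPKM. The 11 heavy chains with a transcript of that length had a median of 0.488 FPKM, and 4 of them were above 1 FPKM. The cytoplasmic dynein heavy chains, which are of similar size, were higher. Dync1h1, the heavy chain of the general minus-end motor of the cytoplasm, averaged 82.1 ± 4.19 FPKM over a longest transcript of 14342 bases. Dync2h1, which drives the return leg of IFT, averaged 7.24 ± 1.21 FPKM over 14264 bases. Hydin, another long axoneme gene, was low, at 0.467 ± 0.126 FPKM over 15783 bases. The part of transcript length in these levels was not tested.

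If each gene is taken at its longest annotated transcript, most of the low heavy chain FPKM values still rested on many fragments. The estimate multiplies FPKM by that length, so its ratio to FPKM is set by the annotation and is no separate result. Some heavy chains also have short transcripts, such as Dnahc17 (1360 to 14973 bases), and would have fewer fragments over these. Dnahc8 had an estimated 972 fragments per library, more than Bbs9 with 923 at a level of 17.6 FPKM. Of the 15 heavy chains, 12 had at least 10 estimated fragments per library, and only Dnahc3, Dnahc7a and Dnahc7c had fewer. The transport genes had between 122 and 3895 fragments per library.

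**Figure D2:**
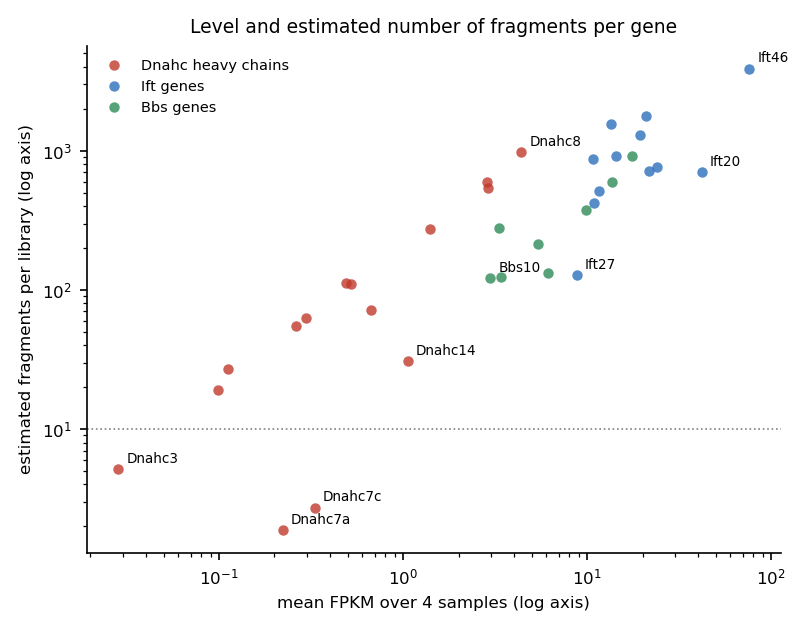
Mean FPKM over the 4 samples against the estimated number of fragments per library, both on log axes, 1 point per gene, with a dotted line at 10 fragments. The estimate uses the longest annotated transcript of each gene, which sets the ratio of fragments to FPKM. In proportion to FPKM the heavy chains (red) therefore have more fragments than the transport genes (blue and green). The exceptions are Dnahc14, the short models Dnahc7a and Dnahc7c, and Dnahc12, which is below Ift80 in this respect.

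The outer arm heavy chains were led by Dnahc8, a chain of the sperm outer arm. Dnahc8 (chr17:30761299-31012209, plus strand, NCBI build 37) was at 4.51 FPKM in 186wt, 4.12 in 343wt, 5.33 in 444wt and 3.55 in 456wt. All 3 libraries of 444wt were above the other 9 libraries and all 3 of 456wt were below them, an order without overlap at both ends. Of all genes tested, 11.5% had the 444wt libraries above the rest and 3.63% had the 456wt libraries below. Between the highest and the lowest sample Dnahc8 differed by 0.57 ± 0.07 (SE) on the log2 scale (adjusted p = 0.00012, limma F-test over the 4 samples). Together, Dnahc8, Dnahc7b and Dnahc2 held 64.8% of the summed FPKM of the heavy chains.

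The other outer arm chains were under 1 FPKM in every sample. Dnahc17, the partner chain in the sperm outer arm, was at 0.417 FPKM in 186wt, 0.477 in 343wt, 0.513 in 444wt and 0.547 in 456wt. It did not pass the test between samples (adjusted p = 0.53, limma), and its exons share 245 bases with Pgs1 on the opposite strand, a gene at 25.7 FPKM. Dnahc9, the beta-type chain of respiratory cilia, was at 0.21, 0.23, 0.32 and 0.283 FPKM in the same order of samples. Dnahc5, the gamma-type chain of respiratory cilia, was at 0.0767, 0.113, 0.103 and 0.157 FPKM. The respiratory pair was lower than the sperm chain Dnahc8 in every sample, and neither Dnahc9 (adjusted p = 0.59) nor Dnahc5 (adjusted p = 0.44) passed the test between samples.

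Dnahc11, a beta-type outer arm chain known for left-right asymmetry, had the largest log2 difference between samples among the heavy chains that were tested. It was at 0.167 FPKM in 186wt, 0.173 in 343wt, 0.52 in 444wt and 0.323 in 456wt. The samples 186wt and 343wt were low and 444wt was high on average, but the libraries of 444wt spread over those of the others. The difference of 1.14 ± 0.37 (SE) on the log2 scale was just past the threshold (adjusted p = 0.048, limma), and it was not past it in 16 of 22 other settings. Leaving out a single library lost the call for any library of 186wt, for libraries 1 and 2 of 343wt, 1 and 3 of 444wt and 1 and 2 of 456wt (adjusted p = 0.0616 to 0.1501, limma). Dnahc11 shares 642 exonic bases with Cdca7l on the opposite strand, which was at 25.9, 31.0, 39.4 and 36.0 FPKM in the same samples and so was also lowest in 186wt and highest in 444wt. The strand setting of the counting is not stated, and the part of Cdca7l fragments in the Dnahc11 values was not tested.

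The inner arm chains with 2 heads together, Dnahc2 and Dnahc10, differed in level from each other. Dnahc2 (chr11:69234311-69362612, minus strand, NCBI build 37) was at 2.61 FPKM in 186wt, 2.2 in 343wt, 3.69 in 444wt and 2.95 in 456wt. Its 444wt libraries were above the other 9, and the highest and lowest samples differed by 0.73 ± 0.11 (SE) on the log2 scale (adjusted p = 0.0011, limma). Dnahc10 (chr5:125205455-125314678, plus strand) was at 0.44, 0.377, 0.58 and 0.683 FPKM in the same order. It was lowest in 343wt, as Dnahc2 was, but highest in 456wt (adjusted p = 0.028, limma). The libraries of 343wt overlapped those of 186wt, and those of 444wt overlapped those of 456wt. The call was lost in 7 of 22 other settings, among them leaving out library 1 or 3 of 343wt or library 1 or 3 of 456wt (adjusted p = 0.0638 to 0.0788, limma).

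The single-headed inner arm chains ranged from 0.0283 FPKM for Dnahc3 to 2.88 FPKM for Dnahc7b. Dnahc1, a chain needed for the beat of the sperm tail, was at 1.25 FPKM in 186wt, 1.15 in 343wt, 1.53 in 444wt and 1.68 in 456wt (adjusted p = 0.006, limma). Dnahc12 was at 0.613, 0.55, 0.837 and 0.69 FPKM and did not pass the test (adjusted p = 0.26). Dnahc6 (0.0983 FPKM) and Dnahc3 (0.0283 FPKM) were below the minimum of 0.1 FPKM and were not tested. Dnahc3, at about 5.17 estimated fragments per library, was nevertheless above 0 in all 12 libraries. Dnahc14, a chain of less known position, was at 0.977, 0.807, 1.13 and 1.32 FPKM (adjusted p = 0.29), over a longest annotated transcript of 1986 bases and about 30.9 fragments per library.

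Dnahc7b, another single-headed chain, had a different order of samples from Dnahc8 and Dnahc2. Dnahc7b (chr1:46123583-46430395, plus strand, NCBI build 37) was at 3.16 FPKM in 186wt, 3.04 in 343wt, 2.3 in 444wt and 3.01 in 456wt. Its 3 libraries of 444wt were below the other 9, whereas 444wt was the highest sample for Dnahc8 and Dnahc2. The highest and lowest samples differed by 0.45 ± 0.08 (SE) on the log2 scale (adjusted p = 0.0012, limma).

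**Figure D3:**
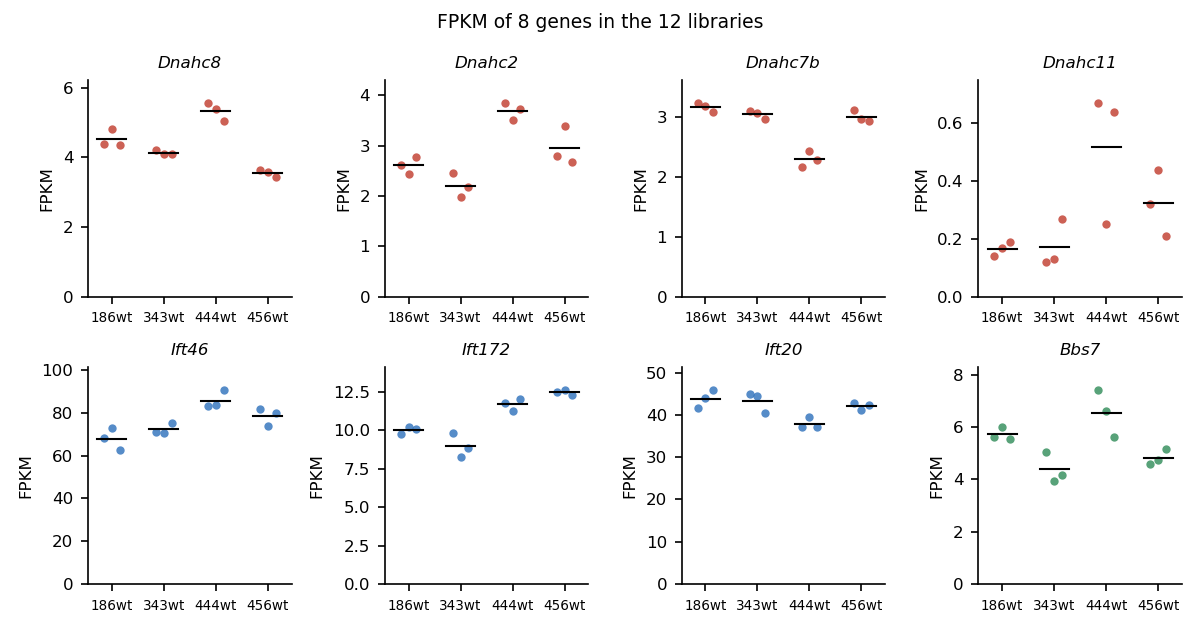
FPKM of 8 genes in the 12 libraries (points, 3 per sample) with the sample means (black bars), each panel on its own linear axis from 0. The 444wt libraries are the highest for Dnahc8 and Dnahc2, the lowest for Dnahc7b and Ift20, and widely spread for Dnahc11.

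Dnahc7b has a pair of close copies, Dnahc7a and Dnahc7c, both on chromosome 1. In this annotation each is given only by a single short model of 612 bases, which may be a part of the gene. These models matched bases 4033 to 4644 of the 12318-base Dnahc7b transcript, with 13 differences each, and differed from each other at 8 positions (98.7% identity). The 100 bases from 450 to 549 of the models are shown because they hold 6 of the 8 differences between Dnahc7a and Dnahc7c. Other differences from Dnahc7b lie outside this stretch. Positions that differ within it are in capitals.
Dnahc7a: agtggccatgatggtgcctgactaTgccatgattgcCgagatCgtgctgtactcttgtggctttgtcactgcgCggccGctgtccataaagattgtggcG
Dnahc7c: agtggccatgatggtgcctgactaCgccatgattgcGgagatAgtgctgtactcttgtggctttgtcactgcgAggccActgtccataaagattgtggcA
Dnahc7b: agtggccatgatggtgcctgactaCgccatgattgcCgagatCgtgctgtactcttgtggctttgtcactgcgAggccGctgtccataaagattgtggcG
Counted from 1 at the 5′ end of the models, with the Dnahc7a base first, the capitals are T474C, C486G, C492A, C523A, G528A and G549A. Outside this stretch the copies are alike over long runs, and 317 of the 513 windows of 100 bases (61.8%) were identical in Dnahc7a and Dnahc7c. At 280 bases, the stated mean fragment length, 137 of the 333 windows (41.1%) were. With Dnahc7b, 46 windows of 100 bases of Dnahc7a and 58 of Dnahc7c were identical, and none of 280 bases.

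The values of these short models were at the limit of the depth. Dnahc7a was at 0.133 FPKM in 186wt, 0.2 in 343wt, 0.257 in 444wt and 0.297 in 456wt, with 5 of 12 libraries at 0. Dnahc7c was at 0.553, 0.287, 0.177 and 0.307 FPKM in the same order, with 3 libraries at 0. With 1.87 and 2.73 estimated fragments per library, no difference between samples was detectable for Dnahc7a (adjusted p = 0.86, limma) or Dnahc7c (adjusted p = 0.84, limma). Fragments that match Dnahc7a and Dnahc7c equally well had to be divided between them, so their single values are uncertain. Whether the Dnahc7b values also hold fragments of these copies from outside their short models was not tested.

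The IFT-A genes, which encode parts of the complex for transport back to the cell body, were both near 20 FPKM. Ift140 was at 19.9 FPKM in 186wt, 18.9 in 343wt, 21.3 in 444wt and 22.97 in 456wt, a small spread that passed the test (adjusted p = 0.0054, limma). Ift122 was at 20.2, 18.1, 20.3 and 19.3 FPKM (adjusted p = 0.038, limma), a call that was lost in 11 of 23 other settings, among them leaving out library 1 or 2 of 186wt, any library of 343wt, library 1 or 3 of 444wt or library 3 of 456wt (adjusted p = 0.0507 to 0.118, limma). Both were lowest in 343wt, and their 4 values overlapped.

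The 10 IFT-B genes encode the complex for transport out to the tip, and their median of 13.9 FPKM was below both IFT-A genes, but the 2 highest members, Ift46 and Ift20, were among them. Ift46 (chr9:44575991-44600797, plus strand, NCBI build 37), a core IFT-B subunit, was at 67.8 FPKM in 186wt, 72.2 in 343wt, 85.7 in 444wt and 78.4 in 456wt. Its 444wt libraries were above the other 9, and the highest and lowest samples differed by 0.34 ± 0.06 (SE) on the log2 scale (adjusted p = 0.0016, limma). Ift46 was above 97.2% of all genes.

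Ift20, which also works at the Golgi, was the second of the transport genes and had the opposite order. It was at 43.8 FPKM in 186wt, 43.2 in 343wt, 37.9 in 444wt and 42.2 in 456wt. Its 444wt libraries were below the other 9, by 0.21 ± 0.05 (SE) on the log2 scale between the highest and lowest samples (adjusted p = 0.0093, limma).

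The other IFT-B genes lay between 8.78 and 24.0 FPKM. Ift88, the subunit altered in the polycystic kidney mouse, was at 15.7 FPKM in 186wt, 12.3 in 343wt, 16.02 in 444wt and 13.7 in 456wt, with the 3 libraries of 343wt below the other 9 (adjusted p = 0.00024, limma). Ift172, the peripheral subunit that is the largest IFT protein, was at 10.01, 8.96, 11.7 and 12.5 FPKM, with the libraries of 456wt above the other 9 (adjusted p = 9.9e-05, limma). Ift74 and Ift81, which bind tubulin as a pair, were at 24.0 ± 1.72 and 11.6 ± 1.90 FPKM, and the 444wt libraries of both were above the other 9. Ift80 was at 12.96, 10.85, 13.7 and 16.4 FPKM, with 456wt above the other 9 libraries (adjusted p = 0.0047, limma). Ift52, a core subunit, was highest in 186wt at 23.96 FPKM and lowest in 343wt at 20.3 FPKM (adjusted p = 0.024, limma), a call that was lost in 5 of 23 other settings. Among these were leaving out library 1 or 3 of 186wt or library 3 of 343wt (adjusted p = 0.0506 to 0.102, limma). Ift27, a small GTPase, was lowest in 186wt at 7.64 FPKM and highest in 444wt at 10.2 FPKM (adjusted p = 0.039, limma), a call that was lost in 15 of 23 other settings. Leaving out any single library ended it except library 1 of 186wt and library 1 of 444wt (adjusted p = 0.0503 to 0.0932, limma). Ift57 was the steadiest IFT gene, at 10.5, 10.7, 11.4 and 11.2 FPKM (adjusted p = 0.67, limma).

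The Bbs genes were lower than the Ift genes, with medians of 5.75 ± 0.563 and 17.2 ± 1.39 FPKM over the samples. The 6 BBSome genes had a median of 7.98 FPKM and were led by Bbs9, a scaffold of the complex. Bbs9 was at 18.6 FPKM in 186wt, 18 in 343wt, 15.25 in 444wt and 18.5 in 456wt, with the 444wt libraries below the other 9 (adjusted p = 0.0028, limma). Bbs2 was at 14.97, 11.1, 12.5 and 15.8 FPKM, and Bbs4 at 9.58, 8.63, 10.6 and 10.6 FPKM. Both passed the test, with adjusted p of 0.0032 for Bbs2 and 0.002 for Bbs4 (limma), and both were lowest in 343wt.

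Bbs7 varied most among the BBSome genes. It was at 5.72 FPKM in 186wt, 4.4 in 343wt, 6.56 in 444wt and 4.84 in 456wt (adjusted p = 0.0038, limma), a log2 difference of 0.57 ± 0.11 (SE). Bbs1, the subunit that meets the GTPase Arl6, was at 3.63, 2.83, 3.71 and 3.15 FPKM, with the libraries of 343wt below the other 9 (adjusted p = 0.0014, limma). Bbs5 was the steadiest member, at 6.16, 5.92, 6.32 and 6.07 FPKM (adjusted p = 0.835, limma). The chaperonin-like genes, whose products help to put the BBSome together, were near the low end of the family, on either side of Bbs1. Bbs12 was at 3.01, 2.79, 3.85 and 4.01 FPKM (adjusted p = 0.00068, limma), and Bbs10 at 2.86, 2.71, 3.47 and 2.83 FPKM (adjusted p = 0.024, limma). The Bbs10 call was lost in 4 of 23 other settings, among them leaving out library 1 (adjusted p = 0.115, limma) or library 2 of 444wt (adjusted p = 0.091, limma).

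Most neighbours in these orders had overlapping ranges over the 4 samples. Of the 14 pairs of neighbouring heavy chains, 11 overlapped, and the values did not overlap between Dnahc8 and Dnahc7b, between Dnahc2 and Dnahc1, and between Dnahc6 and Dnahc3. Within the samples, however, the order was the same in all 4 for 5 of the 11 overlapping pairs, such as Dnahc1 above Dnahc14. Of the 19 neighbouring pairs of transport genes, 15 overlapped. Ift46 was apart from Ift20 and Ift20 from Ift74, and further down Ift27 from Bbs5 and Bbs7 from Bbs12. Of the 15 overlapping pairs 5 had the same order in all 4 samples, such as Ift172 above Bbs4.

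Across the samples, 24 of the 33 members tested differed by the F-test, where 58.2% of all genes tested did. The call depends on the level of a gene, with 19.2% of genes from 0.1 to under 1 FPKM called and 75.8% of genes of at least 1 FPKM. Among the heavy chains 6 of 13 were called, 4 of the 5 with at least 1 FPKM and 2 of the 8 below. Among the transport genes 18 of 20 were called, all but Ift57 and Bbs5. The median log2 difference between the highest and lowest sample was 0.57 for the heavy chains, 0.34 for the transport genes and 0.55 for all genes tested. Without 444wt the members called fell from 24 to 15 and the heavy chains called from 6 to 3. The calls lost were those of Dnahc2, Dnahc7b, Dnahc11, Ift20, Ift74, Ift81, Ift122, Bbs9 and Bbs10. Over all genes the number called also fell without 444wt, from 12107, and further than when any other sample was left out. A fall without 444wt was therefore not particular to the members, and whether theirs was larger was not tested.

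The transport genes were mostly lowest in 343wt. This held for 15 of 20, among them 7 of the 8 Bbs genes, where 34.2% of all genes tested were lowest in that sample, and no transport gene was highest there (17.6% of all genes). They were highest in 444wt for 11 of 20, where 36.3% of all genes were, and in 456wt for 6 (27.3% of all genes). The 3 others, Ift20, Ift52 and Bbs9, were highest in 186wt (18.8% of all genes). The libraries of 343wt were below the other 9 for 4 transport genes, Ift74, Ift88, Bbs1 and Bbs4, and 8.28% of all genes tested behaved in this way. All 3 libraries of 456wt were above the other 9 for Ift80 and Ift172 (9.18% of all genes), and those of 444wt were above for Ift46, Ift74, Ift81 and Bbs10 (11.5% of all genes) and below for Ift20 and Bbs9 (7.48% of all genes).

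The 13 heavy chains tested were highest in 456wt for 6, in 444wt for 5, in 186wt for 2 (Dnahc7b and Dnahc7c) and in 343wt for none. They were lowest in 186wt for 5 and in 343wt for 5, where 27.8% and 34.2% of all genes were. Only Dnahc8 was lowest in 456wt (16.6% of all genes), and only Dnahc7b and Dnahc7c were lowest in 444wt (21.3% of all genes). The libraries of 444wt were above the other 9 for Dnahc8 and Dnahc2, which 11.5% of all genes shared, and below them for Dnahc7b (7.48%), and those of 456wt were below for Dnahc8 (3.63%). No member had all 3 libraries of 186wt above (4.06% of all genes) or below the other 9 (6.76%), or all 3 of 343wt above (5.81%).

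**Figure D4:**
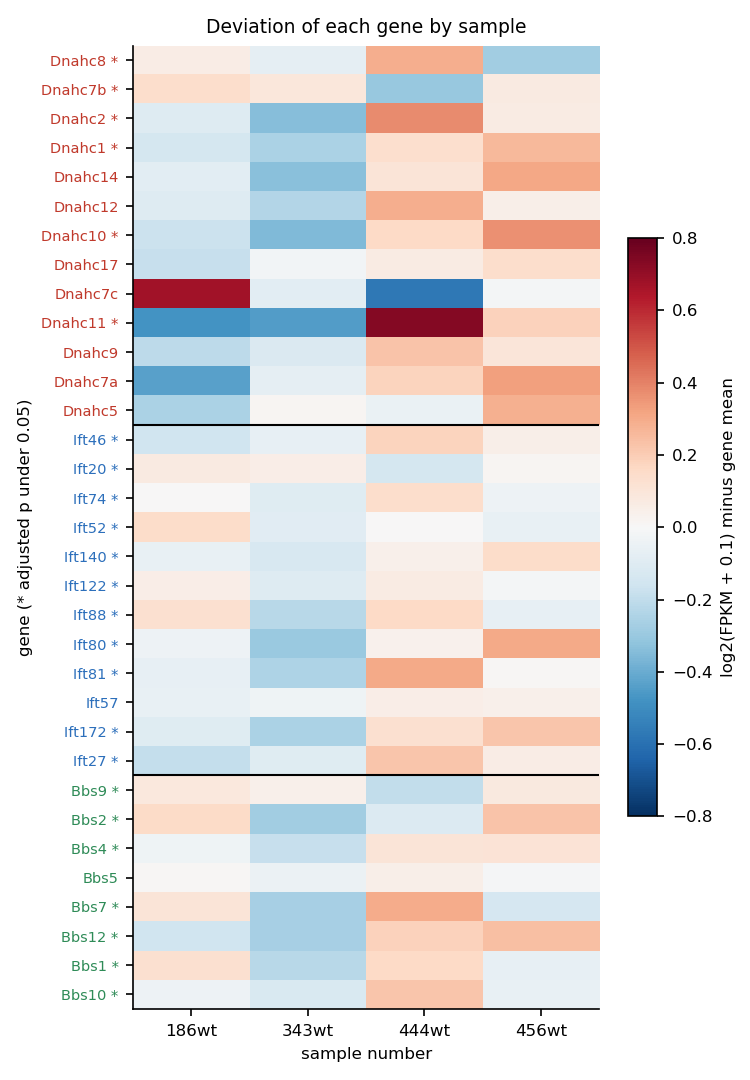
Deviation of log2(FPKM + 0.1) of each sample from the mean of the 4 samples, for the 33 members with a mean of at least 0.1 FPKM, in blocks of heavy chains, Ift and Bbs genes, each ordered by level (red higher, blue lower). An asterisk marks an adjusted p under 0.05. The 343wt column is mostly blue for the transport genes, and Dnahc7b, Dnahc7c, Ift20 and Bbs9 are lowest in 444wt.

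The cell type markers also differed between the samples. The 7 early meiotic markers summed to 281 FPKM in 186wt, 245 in 343wt, 409 in 444wt and 276 in 456wt. All 7 were highest in 444wt, and 6 of them were lowest in 343wt. The 7 pachytene markers summed to 84.0, 65.6, 74.1 and 96.7 FPKM, highest in 456wt, but their order was mixed, since 3 of the 6 with at least 0.1 FPKM were lowest in 343wt and 3 in 444wt. The median of the 7 was 5.96, 5.63, 1.84 and 9.72 FPKM, lowest in 444wt. The 6 spermatogonia markers summed to 556, 577, 763 and 688 FPKM, and 5 of them were highest in 444wt. The 7 Sertoli markers summed to 2971, 3068, 1685 and 1875 FPKM, low in the samples where most members were high. The 6 markers of the multiciliated epithelium of the rete testis and efferent ducts summed to 40.4, 31.4, 48.7 and 56.9 FPKM. Of these 6, 5 were highest in 456wt and 4 were lowest in 343wt. Most of each sum was Epcam, at 33.4, 24.9, 38.3 and 45.4 FPKM. The other markers averaged between 0.445 FPKM for Krt8 and 3.26 FPKM for Ccno, with Foxj1 at 1.21 FPKM. The 5 markers of peritubular myoid cells summed to 533, 253, 670 and 1112 FPKM, all highest in 456wt and 4 of them lowest in 343wt. The 6 Leydig cell markers, at 56.5, 110, 16.1 and 60.9 FPKM in sum, and the 5 macrophage markers, at 11.1, 20.4, 5.58 and 15.4 FPKM, were all highest in 343wt and lowest in 444wt. The 5 endothelial markers summed to 16.0, 20.9, 13.3 and 33.5 FPKM, all highest in 456wt. The part of any of these cell types in the differences of the members was not tested.

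The other genes of the axoneme were mixed in level. The counts that differed between samples below stand against 75.8% of all genes of at least 1 FPKM and 19.2% of those from 0.1 to under 1 FPKM. Of 7 dynein intermediate and light chain genes, 4 were above 1 FPKM and the median was 1.70 FPKM, from 0.0475 FPKM for Txndc3 to 15.4 ± 1.17 FPKM for Dnalc4, and 1 of 6 tested differed between samples, 1 of 4 with at least 1 FPKM. Of 11 genes for the assembly and docking of dynein arms, 7 were above 1 FPKM and the median was 1.62 FPKM. Heatr2, a cytoplasmic factor of dynein assembly, was the highest at 21.9 ± 1.45 FPKM, Armc4 the lowest at 0.0467 FPKM, and 4 of 10 differed, 4 of 7 with at least 1 FPKM. Of 16 genes of the radial spokes, the central pair and the ruler that sets the repeat of the axoneme, 8 were above 1 FPKM and the median was 1.00 FPKM. Both ends of this list were genes of the radial spoke head, Rsph1 at 21.7 ± 4.70 FPKM and Rsph4a at 0.0967 FPKM, with other spoke genes between them. Of the 15 genes tested on this list, 11 differed between samples, 8 of 8 with at least 1 FPKM and 3 of 7 below.

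The other genes of ciliary transport were nearly all above 1 FPKM, and their medians did not follow the order of the members, with IFT genes under other symbols below the Ift members and BBS genes under other symbols above the Bbs members. The counts of genes that differed between samples again stand against 75.8% of all genes of at least 1 FPKM. The 11 IFT genes under other symbols had a median of 8.59 FPKM, from 0.596 FPKM for Ttc30a2 to 26.0 ± 4.89 FPKM for Hspb11, an IFT-B subunit, and 7 of the 10 with at least 1 FPKM differed between samples. The 10 BBS genes under other symbols had a median of 10.05 FPKM, from 3.93 ± 0.998 FPKM for Wdpcp to 30.3 ± 1.61 FPKM for Lztfl1, a regulator of BBSome traffic, and 5 of 10 differed. The 9 genes of the IFT and cytoplasmic motors had a median of 10.7 FPKM, from 5.05 ± 1.03 FPKM for the kinesin Kif17 to Dync1h1, and 7 of 9 differed. The 9 ciliary transcription regulators had a median of 3.26 FPKM. Rfx1, which binds X-box motifs, was the highest of them at 10.9 ± 1.16 FPKM, and Gm6320 (now Mcidas), a switch of multiciliated cells, was the lowest at 0.0508 FPKM.

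**Figure D5:**
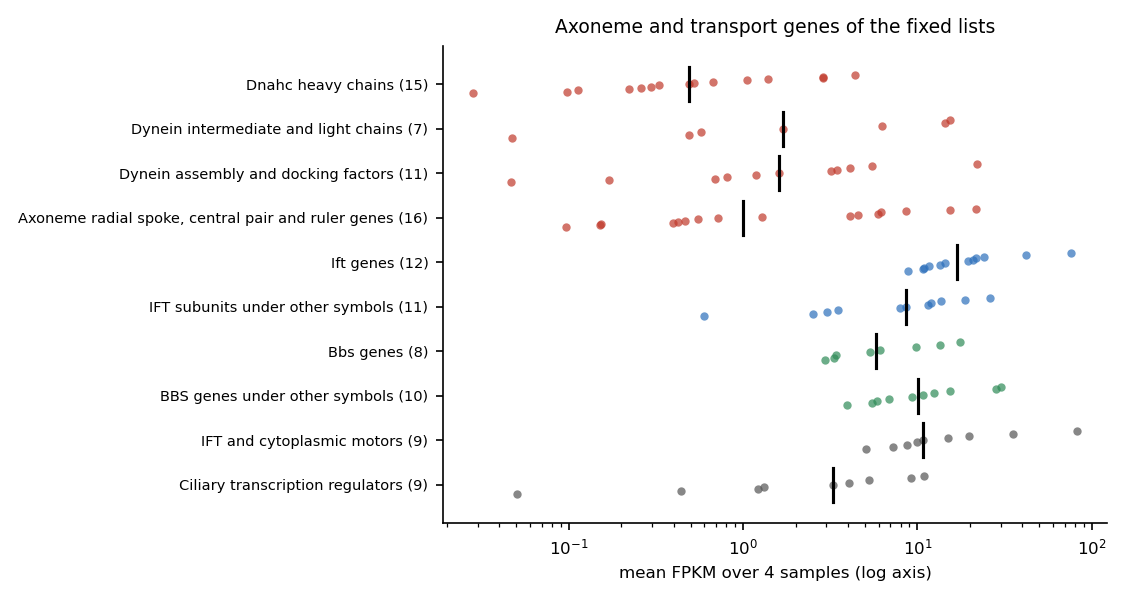
Mean FPKM over the 4 samples on a log axis for the members and for the genes of 7 pathway lists, 1 point per gene, with the number of genes in brackets and a black bar at the median. The 4 lists of axoneme genes (red) reach below 0.1 FPKM, whereas all Ift and Bbs genes (blue and green) are above 1 FPKM and of the related genes under other symbols only Ttc30a2 is below it.

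The promoters of the members differed in sequence. RFX factors bind the X-box, a motif known from ciliary genes, and RefSeq promoter windows of 300 bases (250 before to 50 after the gene start, build GRCm38.p6) were available for 31 of the 35 members. A full X-box core, searched as GTNNCC with GGNNAC following after 2 bases, which reads the same on both strands, was in none of 14 heavy chain windows, in 1 of 9 Ift windows and in 3 of 8 Bbs windows, and 1.88% of 32851 windows of all genes held it. The 4 matches are printed with 8 bases on either side and the core in capitals.
Bbs1 (chr19:4906605-4906634, minus strand): ctgagctgGTTGCCAAGGCGACgcctggga
Bbs4 (chr9:59353464-59353493, minus strand): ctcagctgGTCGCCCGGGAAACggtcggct
Bbs7 (chr3:36613489-36613518, minus strand): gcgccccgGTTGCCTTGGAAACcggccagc
Ift57 (chr16:49699199-49699228, plus strand): cgggtctgGTTGCCGTGGTGACcggctgcc
The core starts at base 2 of Bbs1 and base 24 of Bbs4, counted from the gene start, and at base -121 of Bbs7 and base -87 of Ift57. The shorter GTTGCC, searched on both strands, which can lie inside the core and does so in Bbs1, Bbs7 and Ift57, was in 4 of 14 heavy chain windows (Dnahc7a, Dnahc7b, Dnahc7c and Dnahc10), 5 of 9 Ift windows and 3 of 8 Bbs windows, against 12.5% of all windows. Dnahc7a, Dnahc7b and Dnahc7c are close copies, so their matches need not be independent. The spellings of the core and of the shorter motif were chosen after others had been tried, and a match is no more than a match of letters.

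The windows also differed in CpG content, the count of CG pairs over that given by the C and G content. Its median was 0.450 for the heavy chains, 0.803 for the Ift genes and 0.758 for the Bbs genes, and 0.384 for the windows of all genes. The heavy chain windows ranged from 0.0952 to 0.636 and the Ift windows from 0.591 to 1.21, so the 2 ranges overlapped only slightly.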

How the data were processed

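The 12 RNA-seq libraries were used, and the other 9 samples of the series, which hold no RNA, were not analysed here. The authors mapped paired reads of 100 bases to transcripts of NCBI build 37 (Bowtie 0.12.9), dropped those with at least 2 mismatches, and took FPKM from RSEM 1.2.8 for fragments of 280 ± 50 bases. The deposited FPKM are rounded to 2 decimals and sum to between 477629 and 485096 per library.

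Columns and samples were matched by name, and the 3 libraries of a sample were averaged. The members and lists were chosen with earlier results of these data known. Named were all members, the highest and the lowest gene of each pathway list, and markers whose values stand beside a result. Dync2h1, Hydin, Rabl5, 1700019E19Rik and genes that overlap a member were named after their values were seen. Positions are from GENCODE M1 on NCBI build 37, and 37205 of the 37620 genes were matched to it. The arms of the heavy chains and the complexes of the transport genes were assigned by hand from general knowledge.

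Samples were compared on log2(FPKM + 0.1) with limma 3.58.1 (R 4.3.3), using a trended eBayes fit, over the 20795 genes that averaged 0.1 FPKM or more, by an F-test over the 4 samples with Benjamini-Hochberg adjustment over all genes tested and a threshold of 0.05. The scripts were tested on simulated data. Each SE belongs to the difference of the highest from the lowest sample, which were picked by their values. Other values came from Python 3.11.15 with numpy 2.4.6, scipy 1.17.1, pandas 2.3.3 and matplotlib 3.10.9.

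The deposited FPKM come without counts. The fragments per library were estimated from the steps between low FPKM values in 534 genes with a single transcript of 300 to 800 bases, with a 95% interval of the slope of 14.59 to 14.68 M in library 1 of 186wt. This interval holds for the scatter among those genes alone, and the estimated fragments of a gene assume its longest transcript. Alternatives changed the pseudocount, the filter, the scaling, the trend, the replicate block, the averaging of libraries, the members counted, and the libraries or samples kept. One alternative, heavy chains with a transcript of at least 10000 bases alone, was added after seeing the data.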

Additional observations from a re-analysis of the deposited data

Results flagged for a closer look

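No value met the criteria for a closer look. Of 38 values over the 4 samples (the levels of the members and the summary values), none had a highest or lowest sample set apart from the other 3 by Dixon's 95% criterion, where chance alone gives about 1.9.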

How the results depend on the processing

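The direction of the difference between heavy chains and transport genes was the same under every alternative run, and its size moved with the scale and the genes counted. From -4.43 on the log2 scale it went to -4.68 with a pseudocount of 0.01 and -3.16 with a pseudocount of 1, to -4.19 with members of at least 0.1 FPKM, -4.22 with means over members, -4.28 with the IFT and BBS genes under other symbols, -4.36 without heavy chains that share a number, -4.92 against Ift genes alone and -3.36 against Bbs genes alone. With heavy chains of at least 10000 bases alone, chosen after seeing the data, it was -4.45. When a library or sample was left out, the members that differed between samples numbered 15 to 22 and the heavy chains 3 to 6. These counts were lowest without 444wt, as was the number of all genes called. Beside the calls lost without 444wt, leaving out 343wt ended those of Dnahc10, Dnahc11, Ift52, Ift80, Ift122, Bbs4 and Bbs10, leaving out 456wt those of Dnahc1, Dnahc10, Ift27, Ift80 and Ift140, and leaving out 186wt those of Dnahc11, Ift27 and Ift52. With the libraries numbered 1 to 3 as a replicate block, 22 members differed, 4 of them heavy chains. Fewer of all genes were also called with this block than without it. Libraries with the same number did not deviate together (correlations of -0.0407 to 0.0299, with 3 libraries per sample). What the library number marks is not given in the labels. Counts of members that were highest in a sample moved where few members were counted. Among members that passed the F-test, 1 heavy chain was highest in 186wt, 3 in 444wt and 2 in 456wt, and with the median of the 3 libraries 1 transport gene was highest in 343wt. With 1 library left out, the heavy chains highest in 186wt numbered 1 to 2 and in 343wt 0 to 1, and the transport genes highest in 186wt 2 to 5 and in 343wt 0 to 1. Heavy chains that averaged 0.1 FPKM numbered 12 to 14 under the alternatives that kept this minimum and 15 with any value above 0, and transport genes 20 in each. The depth limits Dnahc3, Dnahc7a and Dnahc7c, which had fewer than 10 estimated fragments per library.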
